A study of Mus musculus with 57 samples.

Results

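Corticospinal neurons (CSN) of Sod1G86R mice were compared with their paired control cells over all ages, to ask which features that set CSN apart from control cells hold in the mutant. The members are the Sod1G86R libraries whose title, with its age, genotype and number, occurs for both a CSN and a control cell library, which gave 11 pairs, or 22 of the 57 libraries. Such a title is read here as 1 animal, of which the study then had 32; no label states that paired libraries share an animal. The 2 unpaired CSN and 3 unpaired control cell libraries of the same genotype were set aside. Sod1G86R mice carry a mutant form of superoxide dismutase 1 and develop motor neuron disease. Of the 11 animals, 2 were sampled at 30 days, 3 at 60 days, 4 at 90 days and 2 at 105 days, and the ages are read as days from numbers the labels give without a unit. The comparison group was 14 wild-type pairs, with 4, 2, 4 and 4 at the same ages, and no library was shared between the genotypes. Brain is given as the tissue of every library, and total RNA was amplified as full-length cDNA and sequenced. The labels describe the control cells no further, and give neither the method by which either cell type was isolated nor the sex or strain of the animals. The promoter and copy number of the transgene are not given in the sources used here.

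CSN are large excitatory neurons of cortical layer 5 whose axons reach the spinal cord, and they degenerate together with spinal motor neurons in amyotrophic lateral sclerosis (ALS). Fezf2 and Bcl11b (also called CTIP2) encode transcription factors that direct layer 5 neurons towards this fate and towards a subcerebral axon. Crym, a thyroid hormone-binding protein known as mu-crystallin, and Pcp4, a calmodulin-binding peptide, are widely used markers of the mature cells.

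Promoters of the 3 marker genes matched in RefSeq (of 4 looked for) are shown because these genes are used here as markers of CSN. Each runs from 250 bases before to 50 after the start that RefSeq annotates on GRCm38.p6, which need not be the end of the GENCODE gene range given for the levels (the Fezf2 window lies inside that range), 5′ to 3′ on the gene's own strand, and capitals mark CG pairs. Fezf2 lies at chr14:12345816-12346115 on the minus strand, Bcl11b at chr12:108003365-108003664 on the minus strand and Pcp4 at chr16:96467356-96467655 on the plus strand.
Fezf2: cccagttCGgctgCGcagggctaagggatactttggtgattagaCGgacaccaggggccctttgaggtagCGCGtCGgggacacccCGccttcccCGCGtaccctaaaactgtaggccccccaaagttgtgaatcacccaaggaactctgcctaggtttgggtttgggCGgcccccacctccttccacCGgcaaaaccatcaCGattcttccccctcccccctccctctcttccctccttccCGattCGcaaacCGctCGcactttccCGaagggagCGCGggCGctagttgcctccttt
Bcl11b: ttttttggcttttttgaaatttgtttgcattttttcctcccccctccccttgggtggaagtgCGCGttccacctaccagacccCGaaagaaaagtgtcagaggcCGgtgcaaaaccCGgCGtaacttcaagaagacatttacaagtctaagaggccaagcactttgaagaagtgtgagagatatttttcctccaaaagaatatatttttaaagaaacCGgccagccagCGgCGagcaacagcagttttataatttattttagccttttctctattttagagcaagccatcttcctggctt
Pcp4: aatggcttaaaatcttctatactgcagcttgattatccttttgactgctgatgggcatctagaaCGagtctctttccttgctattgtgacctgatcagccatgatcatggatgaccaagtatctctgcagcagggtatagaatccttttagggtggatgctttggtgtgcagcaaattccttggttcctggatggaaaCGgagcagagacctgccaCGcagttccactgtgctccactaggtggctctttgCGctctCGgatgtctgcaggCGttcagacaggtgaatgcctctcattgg
The Fezf2 window held 20 CG pairs and was 61.3% G or C, the Bcl11b window held 9 at 43.0%, and the Pcp4 window held 6 at 48.7%. Among 32851 RefSeq promoters of this length the medians were 7 pairs and 52.7%, and 26.5% of promoters held at least as many CG pairs as Fezf2. These counts describe the sequence, and no methylation or binding was measured.

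The 22 libraries held 22.2 to 58.9 M reads (M, megareads), and CSN libraries were deeper than their partners in 9 of 11 pairs (41.2 ± 11.1 against 34.5 ± 8.66 M, SD, n = 11 each; exact two-sided permutation test, p = 0.0469). CSN libraries detected 15644 ± 548 genes and control cell libraries 16544 ± 832. Mean log2 levels of glial markers were lower in CSN in all 11 pairs (8.66 ± 0.897 against 12.1 ± 0.6), as were those of vascular markers (6.62 ± 0.64 against 9.39 ± 0.911) and of GABAergic markers (6.99 ± 0.385 against 8.84 ± 0.715; exact permutation p = 0.000977 for each, the smallest that 11 pairs can give). The lowest correlation between replicate libraries of a group was 0.886, and no pair of libraries held identical values. Levels below are normalised reads, folds are on the scale of log2(level + 34.6), which understates the change of low genes, and each adjusted p-value comes from limma after the Benjamini-Hochberg method over all genes tested.

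The transgene product was read first. Sod1 (ENSMUSG00000022982, GRCm38 chromosome 16, 90220754 to 90226329, plus strand) ranged from 80216 to 172180 in Sod1G86R CSN (median 116950) and from 48084 to 155480 in their control cells (median 99699). Wild-type CSN held 3233 ± 876 (n = 14) and wild-type control cells 3018 ± 790, and no Sod1G86R library overlapped the wild-type libraries in either cell type. Within the Sod1G86R pairs, Sod1 was higher in CSN in 7 of 11 and did not pass (log2 difference 0.24, SE 0.164, adjusted p = 0.231). The reads were not split by allele, so the endogenous and the mutant transcript cannot be told apart.

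The 4 markers introduced above kept their enrichment in every mutant pair. Bcl11b (ENSMUSG00000048251, chromosome 12, 107910403 to 108003602, minus strand) ranged from 7050 to 12113 in CSN (median 9860) and from 98.5 to 670 in control cells (median 240). Fezf2 (ENSMUSG00000021743, chromosome 14, 12342094 to 12348189, minus strand) ranged from 5603 to 10059 (median 7346) against 97.9 to 1121 (median 425). No control cell library reached the lowest CSN library for either factor. Crym (ENSMUSG00000030905, chromosome 7, 120186380 to 120202111, minus strand) lay between 8457 and 17412 in CSN (median 11828) and between 30.0 and 1262 in control cells (median 185). Pcp4 (ENSMUSG00000090223, chromosome 16, 96467606 to 96525793, plus strand) lay between 33723 and 56231 (median 44585) against 519 and 8228 (median 3381). The spread sat mainly in the control cells, whose highest and lowest libraries lay further apart in proportion than those of CSN for each marker.

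As log2 differences these were 5.08 for Bcl11b (SE 0.252, 33.8-fold, adjusted p = 2.28e-10), 4.18 for Fezf2 (SE 0.247, 18.1-fold, adjusted p = 1.05e-09), 5.34 for Crym (SE 0.355, 40.5-fold, adjusted p = 3.51e-09) and 4.01 for Pcp4 (SE 0.31, 16.2-fold, adjusted p = 1.92e-08), each higher in 11 of 11 pairs. The smallest single-pair difference was 2.28, for Pcp4 in replicate 5 at 60 days, and the largest 8.08, for Crym in replicate 4 at 30 days. For Fezf2 the narrowest pairs were replicates 3 and 5 at 90 days (2.55 and 2.84), where its control cell level was highest (1121 and 755). The same markers stood 5.65, 5.11, 4.74 and 4.23 apart in wild type, in the order above.

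**Figure D1:**
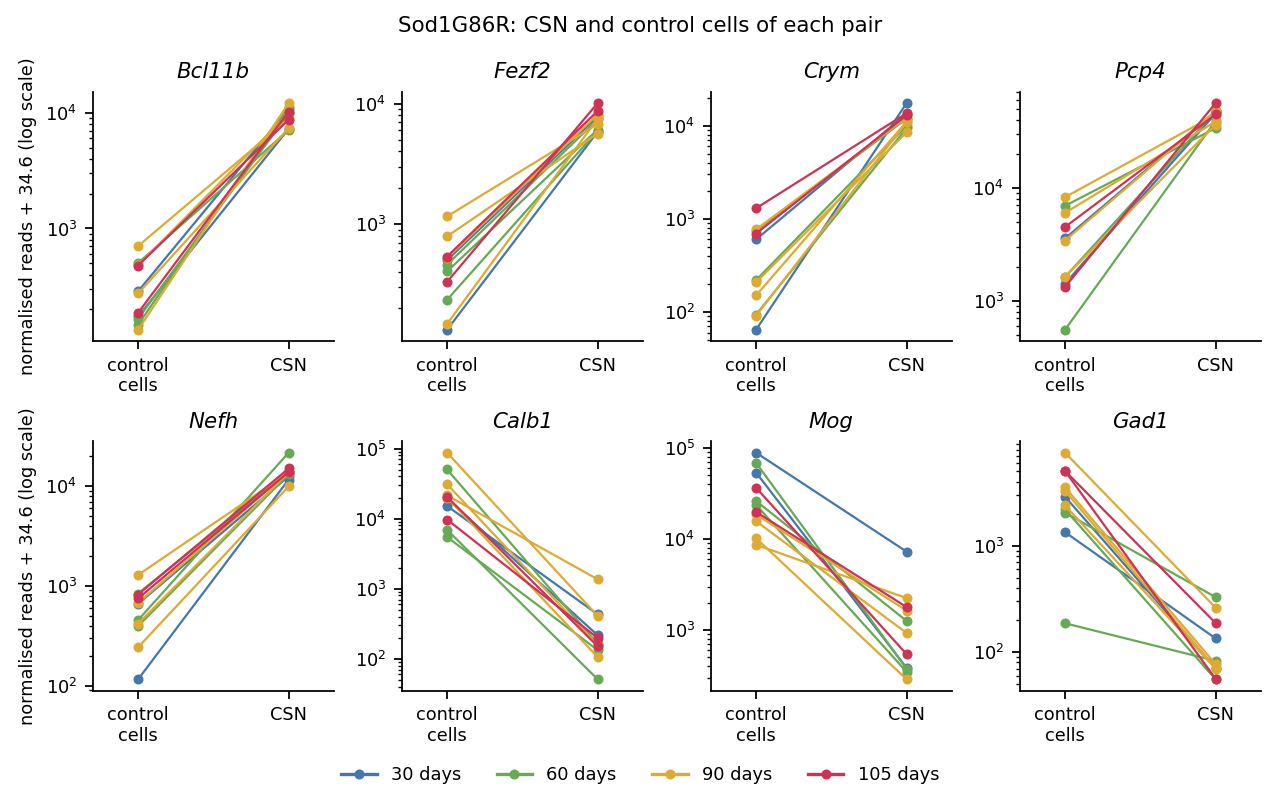
Normalised reads plus 34.6 on a log axis (vertical) in control cells and CSN of the 11 Sod1G86R animals, 1 line per animal, coloured by age. Bcl11b, Fezf2, Crym, Pcp4 and Nefh go up from control cells to CSN in every line, and Calb1, Mog and Gad1 go down in every line.

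Across the transcriptome, 10376 of 19759 genes tested passed (52.5%), of which 4991 were higher in CSN (25.3%) and 5385 lower (27.3%), and 4244 differed by more than 2-fold. Among CSN and layer 5 subcerebral markers, 17 of 19 were higher and 2 lower, with a median log2 difference of 2.56, where the median of all genes tested was 0.00. Npr3, the natriuretic peptide clearance receptor, averaged 4152 in CSN and 362 in control cells (3.66), and Igfbp4, a secreted binding protein of insulin-like growth factors, 17021 and 2324 (3.03). Tcerg1l stood 3.47 higher, the POU factor gene Pou3f1 3.05 and Parm1 2.91. The 2 exceptions were Sulf1, a heparan sulfatase (21.5 against 168, -1.84), and Colgalt2, a collagen galactosyltransferase (82.7 against 306, -1.45), and both were lower in wild type too (-1.96 and -0.80).

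Separation without overlap was rarer. In 860 genes (4.35%) every CSN library lay above every control cell library, and in 725 (3.67%) every one lay below. The genes of this kind in both genotypes numbered 434 higher and 213 lower, and the 5 with the largest mutant difference were Crym, Bcl11b, Syt2, Nefh and Fam84b upwards and Calb1, Car4, Ly6a, Ddit4l and Gpr34 downwards. Syt2 encodes a fast calcium sensor of transmitter release and ranged from 3342 to 7754 in CSN (median 5453) against 64.9 to 609 in control cells (median 162; log2 difference 4.83, SE 0.218, adjusted p = 1.75e-10). Car4, a membrane carbonic anhydrase, ranged from 12.7 to 583 (median 213) against 3558 to 11883 (median 6187; -5.12, SE 0.287, adjusted p = 6.71e-10).

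The 10 largest rises were led by Crym, Bcl11b and Syt2, followed by Nefh (4.75), Fam84b (4.65), Scn4b (4.53), Igsf21 (4.42), Amn (4.35), Slc5a5 (4.29) and Fezf2. Nefh encodes the heavy neurofilament subunit and ranged from 9932 to 21655 in CSN (median 13737) and from 80.9 to 1253 in control cells (median 627). Scn4b, an auxiliary subunit of sodium channels, ranged from 3850 to 6199 (median 4979) against 24.4 to 450 (median 251). Igsf21, a synaptic adhesion protein, and Slc5a5, the sodium-iodide symporter, averaged 4978 ± 971 and 1531 ± 352 in CSN against 245 ± 192 and 61.1 ± 75.1. All of these were higher in CSN in 11 of 11 pairs without overlap.

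The 10 largest falls were Calb1 (-6.54), Il1a (-5.97), Ccl4 (-5.79), Ccl7 (-5.51), Npy (-5.48), Ccl2 (-5.43), Ptgds (-5.40), Opalin (-5.35), Cd14 (-5.25) and Car4. Calb1, the calcium buffer calbindin found in upper-layer and some GABAergic neurons, ranged from 16.2 to 1326 in CSN (median 128) and from 5429 to 87410 in control cells (median 19895). Cytokine and chemokine genes (Il1a, Ccl2, Ccl4 and Ccl7) and the innate receptor gene Cd14 are characteristic of activated microglia and other myeloid cells, and Ptgds and Opalin of oligodendrocytes. Il1a averaged 109 ± 147 in CSN and 8348 ± 4724 in control cells. Ccl7 was uneven, with control cell levels from 1.99 to 26262, and was lower in 10 of 11 pairs, as was Npy (control cells 19.3 to 29347).

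Markers of upper-layer and callosal neurons were mostly lower in CSN, whose libraries also held less glial and vascular marker RNA (above). The part of other cell types in these falls was not tested. Of 15 of 16 members tested, 14 were lower in CSN and none higher (median -1.94). Rasgrf2, an exchange factor of Ras in upper layers, ranged from 85.8 to 342 in CSN against 2894 to 13147 (-4.62, adjusted p = 2.28e-10), and Cux2, an upper-layer transcription factor, from 18.6 to 126 against 559 to 1273 (-3.14, adjusted p = 5.96e-09). Neither gene overlapped between the cell types. The secreted factor Ptn (-2.28) and the axon receptor gene Plxnd1 (-2.45) were lower as well, and Epha3 did not pass (-0.22).

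Layer 6 and subplate markers were mixed, with 2 of 11 higher (12 in the list), 3 lower and a median of 0.17. Of all genes tested, 25.3% were higher and 27.3% lower. Foxp2, a transcription factor, was higher in CSN in 11 of 11 pairs (1756 against 380, 2.13), and Syt6 also passed (0.56). Tbr1 (-0.69), Cplx3 (-1.16) and Ppp1r1b (-1.62) were lower. Of 10 general glutamatergic genes, 4 were higher, among them the vesicular glutamate transporter gene Slc17a7 (6173 against 2497, 1.29) and the neuronal glutamate transporter gene Slc1a1 (5313 against 1928, 1.48). Slc17a6, the second vesicular transporter, was lower (152 against 1072, -2.49), as was Neurod1 (-1.48).

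GABAergic interneuron markers were lower in 14 of 17 tested (18 in the list) and higher in 2 (median -1.70; -0.83 with 4 times the pseudocount, -3.92 by DESeq2, and 8 of 10 lower under the stricter filter). Gad1, which makes GABA, ranged from 20.8 to 293 in CSN (median 42.2) and from 152 to 7445 in control cells (median 2850; -4.55, SE 0.382, adjusted p = 4.87e-08). It was lower in CSN in every pair, with 1 weak control library at 60 days. The peptide gene Vip (-4.29), the neuregulin receptor gene Erbb4 (-3.18) and Adarb2 (-2.26) were lower, and Sst did not pass (-0.81, adjusted p = 0.308). The exceptions were Pvalb, the calcium buffer parvalbumin, which was higher in CSN in 9 of 11 pairs (181 to 2019, median 876, against 31.2 to 1460, median 112; 2.03, adjusted p = 0.000461), and Lamp5 (0.59, adjusted p = 0.047), whose call was lost in 13 of 24 alternative settings.

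Glial and vascular markers were almost uniformly lower in CSN. Counts were 16 of 16 microglial markers lower (median -3.94), 13 of 13 oligodendrocyte markers (median -4.38), 8 of 9 precursor markers (median -2.66), 11 of 12 astrocyte markers (median -2.69) and 12 of 14 endothelial and mural markers (median -2.81), and none was higher. Mog, a surface glycoprotein of myelin, ranged from 252 to 7206 in CSN (median 891) and from 8598 to 88547 in control cells (median 23646; -4.81, SE 0.407, adjusted p = 5.32e-08). Tyrobp, a microglial signalling adaptor, ranged from 33.0 to 862 against 2240 to 9572 (-4.70, SE 0.234, adjusted p = 2.28e-10). Neither overlapped, and neither was at 0 in CSN. Astrocytic Atp1b2 (-3.74) and Gjb6 (-3.77), endothelial Flt1 (-4.51) and Ly6c1 (-4.82), and the precursor gene Gpr17 (-3.17) followed, while Gfap (-0.90), Tnr (0.05), Pdgfrb (-0.27) and Acta2 (-0.71) did not pass. In libraries of many cells, fewer cells of a type and less RNA per cell cannot be told apart.

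Antigen presentation and interferon genes, which microglia and endothelium express strongly, were lower in 13 of 16 tested (17 in the list) and higher in none (median -1.52; -0.79 with 4 times the pseudocount, -2.85 by edgeR, and 7 of 9 lower under the stricter filter). B2m, the light chain of class I molecules, averaged 1664 in CSN and 11708 in control cells (-2.75), and H2-K1, a heavy chain, 162 and 2047 (-3.37). H2-D1 (-0.09) and Tap2 (-0.21) were among those that did not pass. The glial marker level moved with these genes across the pairs' cell types (8.66 against 12.1 above), and its part in the result was not tested.

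**Figure D2:**
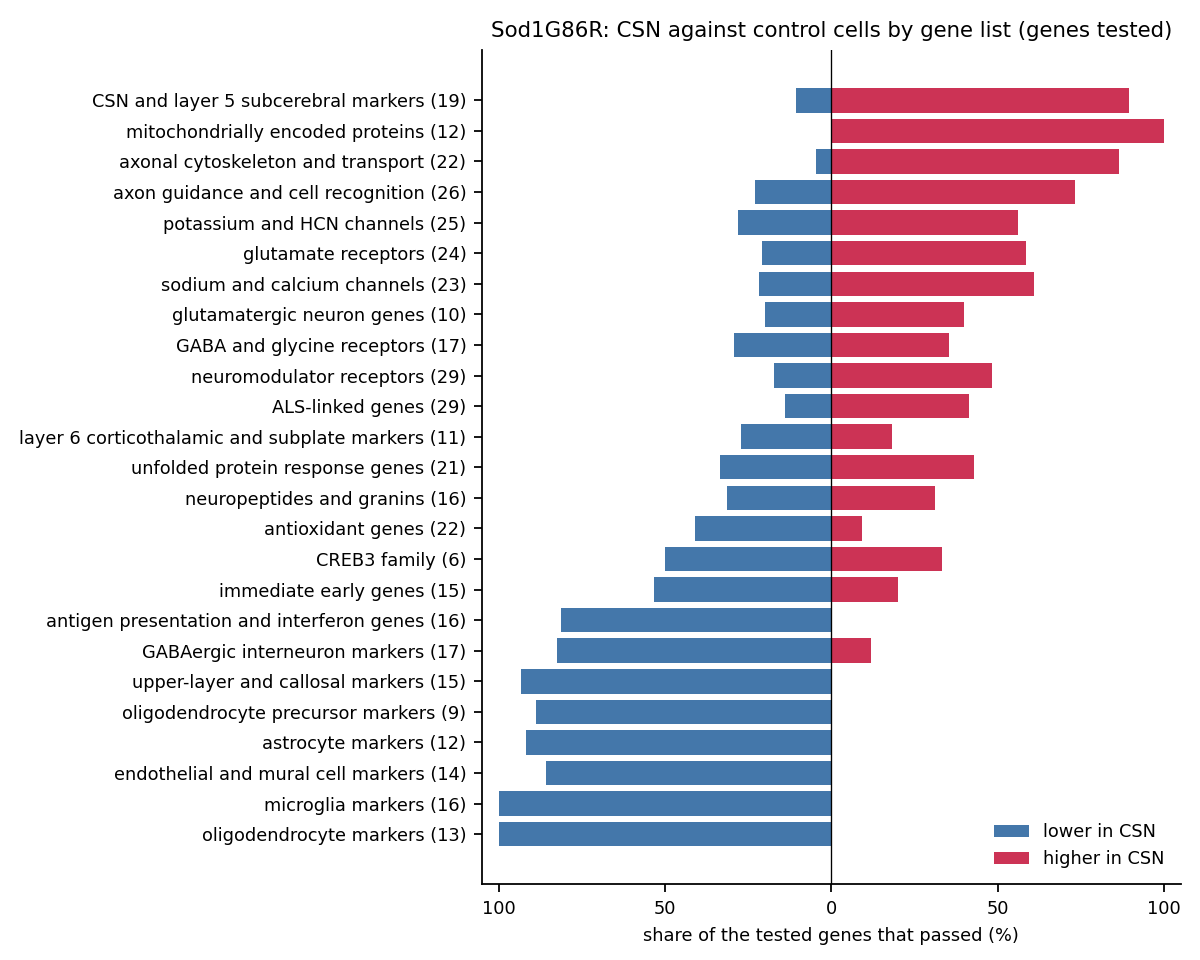
Share of the tested genes of each list that passed the paired test in Sod1G86R (horizontal, %), lower in CSN to the left in blue and higher to the right in red, with the number tested beside each list and lists ordered by their median. All 12 mitochondrially encoded genes tested were higher, and all 16 microglial and 13 oligodendrocyte markers were lower.

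Most genes of the axonal machinery were higher in mutant CSN. Of 22 cytoskeleton and transport genes, 19 were higher and 1 lower (median 1.38, and 1.31 in wild type). Control cells held more glial marker RNA (above), and the part of cell composition in these rises was not tested. The neurofilament genes Nefm (12818 against 1285, 3.4), Nefl (25561 against 5935, 2.19) and Ina (25457 against 3938, 2.77) were higher in 11 of 11 pairs, with Nefh above. Tubb3, the neuronal tubulin, averaged 23680 against 3936 (2.67), the growth cone gene Gap43 34321 against 7228 (2.48) and Kif5a, a kinesin motor that carries neurofilaments, 15471 against 3288 (2.22). The 1 lower gene was Sncg, gamma-synuclein (9.65 against 110, -1.27), and Prph (0.47) and Tubb4a (-0.02) did not pass.

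Guidance and recognition genes split in direction, with 19 of 26 higher and 6 lower (median 0.97). The semaphorin gene Sema3e (2694 against 297, 3.15) and the receptor genes Nrp1 (2.30), Robo1 (1.65), Ephb1 (1.59), Plxna1 (1.58) and Unc5c (1.55) were higher. Lower were Unc5d, a netrin receptor of upper-layer neurons (82.8 against 2541, -4.46), Sema3a (-2.74), Dcc (-2.09), Nrp2 (-2.03), Slit1 (-1.36) and Epha4 (-0.89).

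Channel genes followed the same 2-sided form. Among potassium and HCN channels 14 of 25 were higher and 7 lower (median 0.72). Kcnn2, a calcium-gated channel, ranged from 7072 to 9659 in CSN (median 8626) and from 969 to 2872 in control cells (median 1591; 2.32, SE 0.158, adjusted p = 4.51e-09) with no overlap. The auxiliary Kcnab2 (2.24) and the axonal Kcna1 (2.01) were higher, and the fast delayed-rectifier genes Kcnc2 (118 against 2004, -4.08) and Kcnc1 (-1.83), typical of fast-spiking interneurons, were lower. Of 23 sodium and calcium channel genes 14 were higher and 5 lower (median 0.53), with Scn4b, Cacna1h (2.56) and Scn1a (2.05) among the higher and Scn3b lowest (396 against 2328, -2.37).

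Of 24 glutamate receptor genes, 14 were higher and 5 lower (median 0.65), where 25.3% of all genes tested were higher and 27.3% lower. Grm8 (2405 against 398, 2.67) and Grm4 (2.19) were higher, and Grik1 (-1.85), Grm2 (-1.84), Gria4 (-1.77) and Grin2c (-1.67) lower. GABA and glycine receptor genes were divided, 6 of 17 higher and 5 lower (median 0.34), from Gabra5 (6258 against 1576, 2.20) to Gabrg1 (542 against 2380, -2.13). Among 29 neuromodulator receptor genes tested (32 in the list), 14 were higher and 5 lower (median 0.26). Hrh3, a histamine autoreceptor (4389 against 444, 3.60), Chrna4, a nicotinic subunit (2872 against 247, 3.56), and Htr1f, a serotonin receptor (1429 against 128, 3.5), were higher and Hrh1 (-3.09) and Chrm2 (-1.87) lower. Among 16 neuropeptide and granin genes tested (18 in the list), 5 were higher, led by Chga (2.35) and Vgf (2.09), and 5 lower, among them Penk (31.7 against 1518, -4.07) and Crh (-2.34).

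All 12 mitochondrially encoded protein genes tested (13 in the list) were higher in CSN, with a median of 1.70. mt-Nd6, a complex I subunit, stood at 8836 to 26505 in CSN (median 13024) against 2194 to 12265 (median 4748), higher in 10 of 11 pairs. mt-Nd1, another complex I subunit, ranged from 239000 to 687830 (median 493790) against 43224 to 221310 (median 102900), with no overlap (2.17, SE 0.25, adjusted p = 1.71e-06). As a share of all reads, mitochondrially encoded RNA made up 6.38 ± 2.25% of CSN libraries and 1.91 ± 0.768% of control cell libraries. The exception in the share was replicate 3 at 90 days (3.52% against 3.78%).

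Stress and disease genes went both ways, as did all genes tested, of which 25.3% were higher in CSN and 27.3% lower. Of 22 antioxidant genes, 9 were lower and 2 higher (median -0.25). Prdx1 (6692 against 28955, -2.11), Mt1 (-2.04), Gpx1 (-1.44) and Cat (-1.54), which detoxify peroxide or bind metal, were lower, Prdx5 was higher (10948 against 6012, 1.03), and the call of Prdx2 (0.44) was lost in 8 of 24 settings. Unfolded protein response genes divided into 9 higher and 7 lower of 21 tested (22 in the list; median -0.03): the sensor genes Atf6 (1.17), Ern1 (1.12) and Eif2ak3 (0.81) were higher, and the chaperone gene Hspa5 (-0.71), Xbp1 (-1.21) and the injury-induced factor gene Atf3 (68.9 against 2483, -4.61) lower. Immediate early genes were lower in 8 of 15 tested (16 in the list) and higher in 3 (median -0.51), with Egr2 (68.1 against 1318, -3.66) and Fos (2077 against 8337, -1.80) lower and Egr4 (3850 against 871, 2.09) and Arc (0.85) higher.

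Creb3, a membrane-bound transcription factor, ranged from 2309 to 6368 in CSN (median 3621) and from 4227 to 8993 in control cells (median 6168), and was lower in 10 of 11 pairs (-0.65, SE 0.156, adjusted p = 0.00226). In its family and partners, 2 of 6 tested (7 in the list) were higher and 3 lower (median -0.50). Creb3l1 went the other way from Creb3 (663 against 34.0, 3.4, higher in 11 of 11 pairs). Of 29 ALS-linked genes, 12 were higher and 4 lower (median 0.24), where 52.5% of all genes tested passed in either direction. Kif5a, Stmn2 (1.37), Dctn1 (1.31) and Nek1 (1.23) were among the higher, and Erbb4 (-3.18), Ang (-1.25), Pfn1 (-0.81) and Hnrnpa2b1 (-0.75) were the 4 lower. The list holds Sod1, which did not pass.

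To ask which differences hold in the mutant, the calls were set beside those of the 14 wild-type pairs, fitted apart, in which 11409 of 20594 genes passed (55.4%). Of 19421 genes tested in both genotypes, 7693 were called in the same direction, which was 75.1% of the mutant calls and 69.5% of the wild-type calls, and 19 were called in opposite directions. Of 4641 genes called over 2-fold in wild type, 4231 (91.2%) were called in the same direction in Sod1G86R at any size. With the 2-fold cut in both genotypes, the count was 3234 (69.7%). Of the 4641, 404 were not called in Sod1G86R (381 of them with the same sign) and 6 were called the other way. Across these 19421 genes the log2 differences had a Pearson r of 0.907, a description, since genes are not independent replicates. Every CSN marker had the same call in both genotypes (19 of 19), as did 16 of 16 microglial, 13 of 13 oligodendrocyte, 14 of 15 upper-layer and 18 of 22 axonal genes. Other lists held a smaller part, among them 11 of 17 GABAergic, 6 of 10 glutamatergic and 4 of 11 layer 6 genes. The same was true of 10 of 22 antioxidant and 13 of 29 ALS-linked genes. For all genes tested in both genotypes the count was 7693 of 19421.

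**Figure D3:**
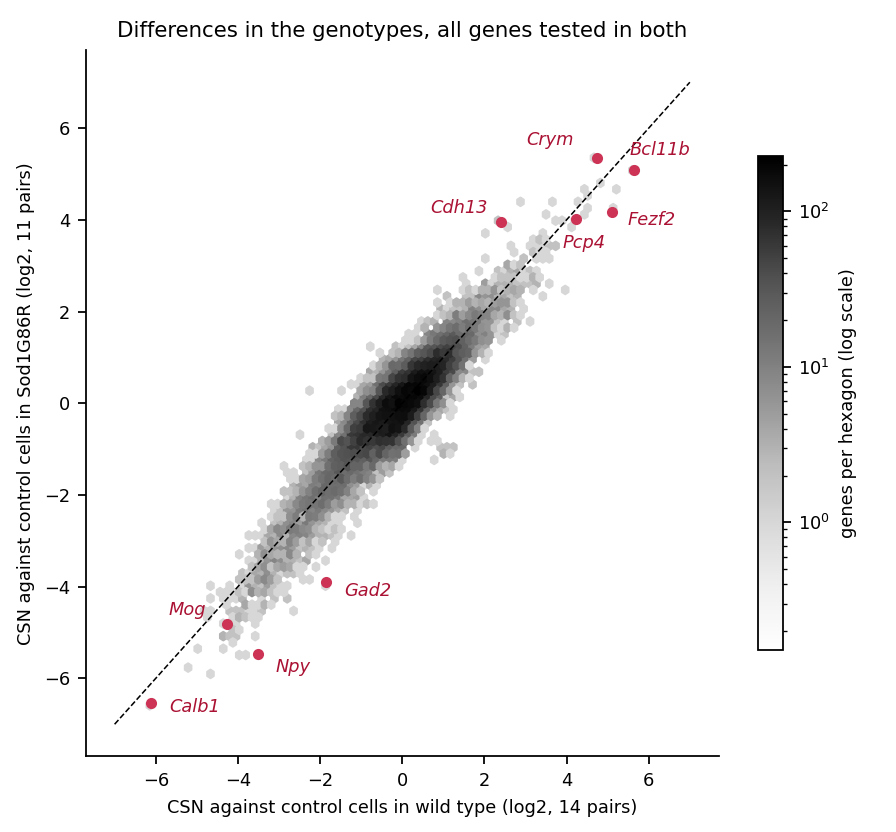
Log2 difference between CSN and control cells in wild type (horizontal, 14 pairs) and Sod1G86R (vertical, 11 pairs), as genes per hexagon, with named genes in red and a dashed line where both are equal. Crym, Bcl11b, Fezf2 and Pcp4 sit at the upper right and Calb1 at the lower left, and Cdh13, Gad2 and Npy lie off the line.

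The 19 genes called in opposite directions fell into a pattern that was seen after their values were known. Of these, 10 were gene models with numbered Gm symbols, all lower in mutant CSN and higher in wild-type CSN, and 3 passed 2-fold both ways (Gm10717, Gm10800 and Gm26870). Gm10800 averaged 104500 in mutant CSN and 182500 in mutant control cells (-1.12), against 223400 and 151500 in wild type (1.2). Such models can share reads with near-identical copies, so their levels are uncertain. The other 9 were Snapc2, Maged2, Tmem106c, Abraxas2, Suclg1, Ptpra, Copg2 and Ostm1, higher in mutant CSN and lower in wild-type CSN, and Nckap5, the reverse. None of the 19 passed the test of the difference itself (adjusted p from 0.111 to 0.17).

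The difference between the genotypes was tested directly over all 50 paired libraries, and 1 of 21692 genes passed (0.00461%), with 3726 at an unadjusted p under 0.05. That gene was Cdh13 (ENSMUSG00000031841, chromosome 8, 118283733 to 119324921, plus strand), which encodes T-cadherin, a membrane-anchored adhesion molecule without a cytoplasmic tail. It ranged from 4547 to 8250 in mutant CSN (median 6419) and from 157 to 851 in mutant control cells (median 386). Means in wild type, set here beside mutant medians, were 5568 ± 1066 in CSN and 1126 ± 566 in control cells. In proportion, these values lay closer between the genotypes in CSN than in control cells. The pair differences ran from 2.57 to 4.76 in Sod1G86R and from 1.06 to 3.54 in wild type and overlapped. The gap of the fitted differences was 1.64 (SE 0.271, adjusted p = 0.0312).

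That call was not stable. It was lost in 21 of 36 alternative settings, with an adjusted p between 0.000105 and 1.0, although the gap kept its sign at 1.24 to 1.81. edgeR's quasi-likelihood test called 1 gene and DESeq2 741 (307 with a gap above 0 and 434 below 0, where the gap is the mutant difference minus that of wild type). Without replicate 8 at 90 days in Sod1G86R, limma called 433 genes (352 above and 81 below 0), and without replicate 3 at 90 days in wild type it called 272 (193 and 79), while 16 of the 25 fits without 1 pair called 0. Depth differed between cell types in opposite directions in the genotypes: CSN libraries were deeper by 6.73 ± 9.83 M reads in Sod1G86R and shallower by 9.88 ± 8.65 M in wild type (permutation test with 100000 permutations, p = 0.00012, adjusted over 7 measures 0.00084). Its part in these counts was not tested.

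In the reported fit, none of the identity lists held a gene that passed for the genotype difference. In alternative settings, at most 4 GABAergic markers and at most 1 endothelial or mural marker passed. For Fezf2 the difference was 0.81 smaller in Sod1G86R on the log2 scale by the fit (-0.81, SE 0.378, unadjusted p = 0.0409, adjusted p = 0.274), for Bcl11b -0.63 (SE 0.348, adjusted p = 0.344), for Pcp4 -0.39 (SE 0.433) and for Crym 0.40 (SE 0.479). Missing the threshold does not show that the enrichment was equal in the genotypes. Creb3 had a gap of 0.64 (SE 0.224, adjusted p = 0.187), the difference being -0.65 in Sod1G86R and -1.21 in wild type.

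GABAergic markers held 8 of 18 genes with an unadjusted p under 0.05 for the genotype difference, against 17.2% of all genes tested, and 16 of the 18 gaps were below 0. Gad2, the other GABA-making enzyme, ranged from 38.4 to 337 in mutant CSN (median 58.8). In mutant control cells it ranged from 163 to 5637 (median 1908). Wild-type values, given as means and not medians, were 92.0 in CSN and 724 in control cells. The gap was -2.31 (SE 0.473, adjusted p = 0.111), and Gad2 passed in 4 of 36 alternative settings. Gad1 (-2.06), Npy (-2.24) and Erbb4 (-1.0) had gaps of the same sign and adjusted p-values above the threshold. The mean log2 level of GABAergic markers was 6.99 in mutant and 6.95 in wild-type CSN. That of control cells was 8.84 ± 0.715 in Sod1G86R and 8.14 ± 0.65 in wild type, a contrast not tested by itself. The mean difference within pairs was -1.85 in Sod1G86R and -1.19 in wild type (permutation of genotype over pairs, p = 0.0318, adjusted over 7 measures 0.0682).

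Mitochondrially encoded genes were all less enriched in the mutant by sign (12 of 12 gaps below 0, median -0.70). Of the 12, 10 had an unadjusted p under 0.05, but none passed in the reported fit. At most 2 passed in any alternative setting, and at most 1 when 1 pair was left out. With the mitochondrial share as a covariate, which these genes make up, the median gap was -0.0042. The counts of these genes and the share are therefore not separate observations. mt-Nd4, a complex I subunit, differed by 1.65 in Sod1G86R and 2.52 in wild type (gap -0.89). The mitochondrial share rose from control cells to CSN by 4.47 ± 2.48 percentage points in Sod1G86R and by 7.27 ± 2.11 in wild type (permutation test with 100000 permutations, p = 0.00652, adjusted over 7 measures 0.0228), and the CSN libraries carried most of this gap (6.38% against 8.71%, control cells 1.91% against 1.44%). Among antioxidant genes, 17 of 22 gaps were above 0 and 4 had an unadjusted p under 0.05, a share close to the 17.2% of all genes tested. Gsr, glutathione reductase, stood at 0.25 in Sod1G86R and -0.78 in wild type (gap 1.02, SE 0.213, adjusted p = 0.111) and Prdx3, a mitochondrial peroxidase, at 0.31 and -0.60 (gap 1.0, SE 0.237, adjusted p = 0.135). Genes with a mean of at least 346 and no predicted, clone or Riken symbol were also ranked by p in each direction. Smallest above 0 were Cdh13, Dld (gap 1.11) and Sdc2 (1.33). Below 0 they were Gad2, Lama4 (-1.11) and the small nuclear RNA gene Rn7sk (-1.56). Adjusted p by limma was 0.11 to 0.135 for Dld, Sdc2, Lama4 and Rn7sk, a range that also held other genes, such as Gsr.

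**Figure D4:**
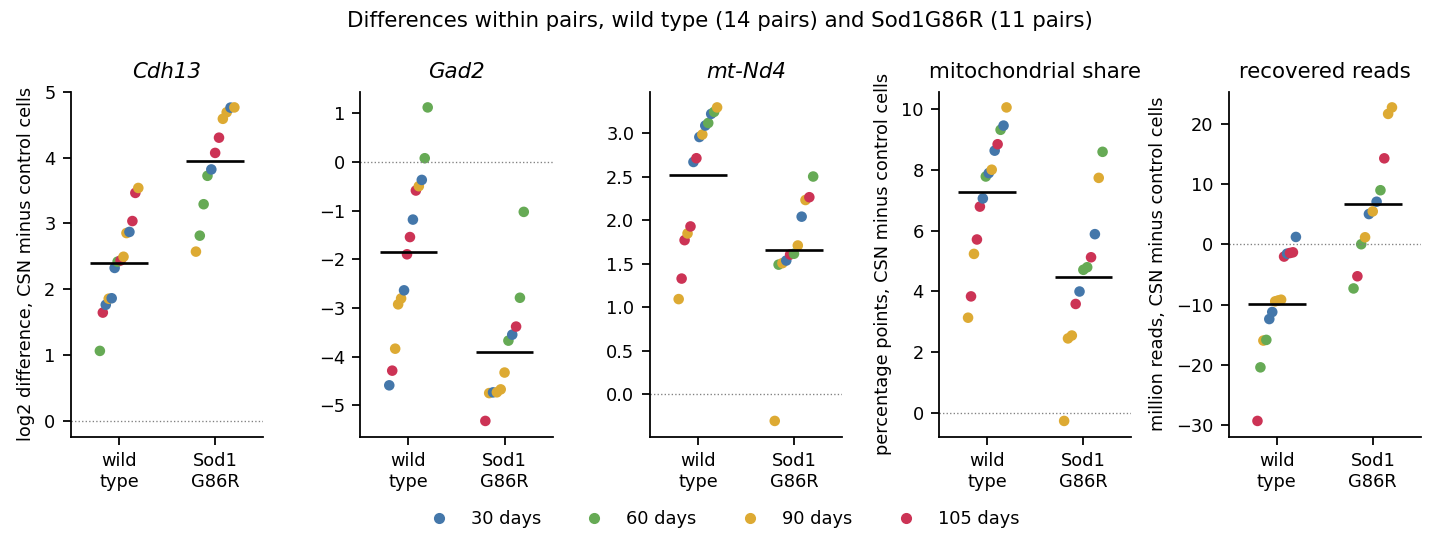
Difference between CSN and control cells within each animal (vertical: log2 for Cdh13, Gad2 and mt-Nd4, percentage points for the mitochondrial share and reads for depth) in wild type and Sod1G86R, 1 point per animal coloured by age, bars at the mean. Cdh13 pairs run from 1.06 to 3.54 in wild type and from 2.57 to 4.76 in Sod1G86R, and the depth difference is above 0 in 9 of 11 mutant pairs and in 1 of 14 wild-type pairs.

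Few or no genes passed between late and early mutant pairs, which does not show that age made no difference. Late animals (90 and 105 days, 6 pairs) and early animals (30 and 60 days, 5 pairs) differed in 0 of 19759 genes by limma (0%), with 862 at an unadjusted p under 0.05, in 0 by edgeR's quasi-likelihood test and in 17 by DESeq2. Among genes with a mean of at least 346 and no predicted, clone or Riken symbol, the smallest p-values by limma were ranked in each direction. Above 0 they belonged to Polr3e (late minus early 1.80), Acy3 (2.36) and Birc2 (1.67). Below 0 they belonged to Slc35f3 (-2.16), Mir6236 (-1.96) and Aagab (-1.34). None of these passed in the reported fit, and Polr3e, Acy3 and Slc35f3 each passed in 1 of 20 alternative settings. Without replicate 8 at 90 days 1 gene passed.

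At single ages the counts were 1890 genes at 30 days (9.57%), 5350 at 60 days (27.1%), 3613 at 90 days (18.3%) and 3239 at 105 days (16.4%), from 2, 3, 4 and 2 pairs with a shared estimate of the spread. Counts of unequal numbers of pairs show no trend with age, and single pairs decided some of them: the count was 356 or 402 at 30 days without replicate 4 or 3, 2847 or 3079 at 60 days without replicate 3 or 5, 2223 or 2324 at 90 days without replicate 5 or 6, and 1053 or 1350 at 105 days without replicate 9 or 13. Bcl11b stood at 5.32, 5.32, 4.82 and 4.99 at the ages in turn, Fezf2 at 4.71, 4.19, 3.75 and 4.47, Crym at 6.28, 5.38, 5.6 and 3.80 and Pcp4 at 4.37, 4.43, 3.35 and 4.36, and each passed at every age. The medians of CSN markers were 2.34, 2.79, 2.51 and 2.32, and those of axonal genes 1.24, 1.76, 1.17 and 1.56. Oligodendrocyte markers had medians of -5.08, -5.06, -3.11 and -4.77, and astrocyte markers -3.17, -3.37, -1.61 and -3.4. The mean log2 level of glial markers differed by -3.65 to -1.39 within the pairs at 90 days, with replicate 8 nearest to 0, and by -4.83 to -2.28 at 60 days.

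**Figure D5:**
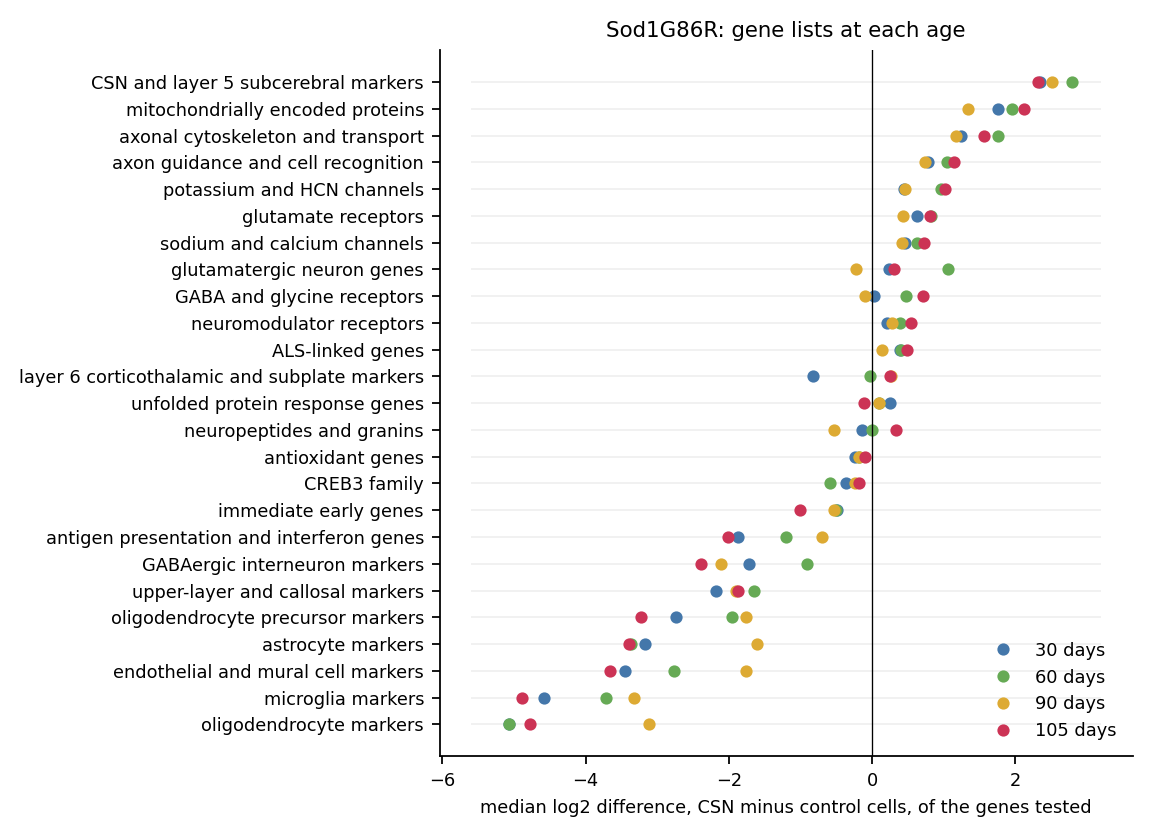
Median log2 difference between CSN and control cells of the genes tested in each list (horizontal), 1 point per age, for the Sod1G86R pairs. CSN markers lie between 2.32 and 2.79 at all 4 ages, and oligodendrocyte markers between -5.08 and -3.11, with 90 days nearest to 0.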

How the data were processed

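The authors deposited 1 table of read counts per gene divided by 1 factor per library, a normalised signal; how the factors were set is not stated in the labels. Per the series' design text, full-length cDNA was made with SMART-Seq v4 (11 cycles), libraries with Nextera XT (12 cycles), and paired reads of 50 bases were aligned with STAR 2.7.0 to GRCm38 with Ensembl 87. Per the submitters' processing notes, edgeR and mm10 were also used, with no role stated. Whole reads were recovered from the deposited signal (100% of values within 0.001 of a whole number) and gave 22.2 to 58.9 M (megareads) in the 22 mutant libraries. These are PCR reads without molecular identifiers, and nothing in the labels separates biological from technical spread.

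Of 45337 genes, those at 34.6 or more (1 ppm of the median library total) in at least 3 libraries were tested with limma 3.58.1 in R 4.3.3 (trended, robust) on log2(level + 34.6), with the pair (a shared age, genotype and number in the titles, read as 1 animal, which no label states) as block. Adjustment was Benjamini-Hochberg at 0.05. After group means were removed, the residual correlation of the 11 mutant pairs ran from -0.319 to 0.282, and 4 of 11 exceeded 0.1. The genotype difference used all 50 paired libraries with cell type by age terms. Library measures were tested by exact sign changes or 100000 permutations. Depth, marker levels and the mitochondrial share were computed from the same table. Gene coordinates come from GENCODE M21 (GRCm38) and promoters from RefSeq.

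Named were Sod1, Creb3 and the 4 markers, then, among genes that passed, had no less than 346 on average in the cell type where they were higher and carried no predicted, clone or Riken symbol, the 10 largest rises and falls (the 3 smallest p-values where fewer than 3 passed), up to 4 members of each list by p with its exceptions, and the 5 largest in each direction without overlap in both genotypes. Further list members are examples chosen with their values known. The members and lists were chosen with earlier results of these data known. Alternatives were the pseudocount, the filter, TMM and quantile scaling, the block, equal weight per age, edgeR 4.0.16 and DESeq2 1.42.0 on the recovered reads, a mitochondrial covariate, and leaving out each pair. Leaving out all pairs of 90 days, or all of 60 days, was added after seeing the data. The reported fits of the mutant pairs and of the genotype difference were run on simulated data with limma. All but those at single ages were also run with edgeR. The wild-type fit and DESeq2 were not tested this way. The 5 unpaired Sod1G86R libraries and the unpaired wild-type libraries were left out, and a few list members are not reported here by name.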

Additional observations from a re-analysis of the deposited data

Results flagged for a closer look

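Of 33 checks for a pair far from the others among the 4 pairs of 90-day Sod1G86R animals, 3 passed the critical value of 0.829, where chance gives about 1 in 20. The log2 difference of Amn was 2.79 in replicate 6, against 4.3 to 4.6 in the other pairs. That of Slc5a5 was 2.11 in replicate 5, against 5.0 to 5.26. Calb1 stood at -3.98 in replicate 5, against -7.75 to -7.56. The last 2 values came from 1 pair.

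Between genotypes, the difference of Cdh13 was 1.64 larger in Sod1G86R on the log2 scale by limma (adjusted p = 0.0312). The depth difference between CSN and control cells was 16.6 M reads (megareads) higher in Sod1G86R than in wild type (permutation test, p = 0.00012, adjusted 0.00084). The difference in mitochondrial share was -2.80 percentage points in the same direction of subtraction (permutation test, p = 0.00652, adjusted 0.0228). Whether depth or the mitochondrial share bears on the genotype comparison was not tested beyond the fit with that share as a covariate.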

How the results depend on the processing

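The count of Sod1G86R calls stayed between 7042 and 11390 in every alternative but the fit without a filter on low values, which called 19165 of 44716 genes (4972 higher, 14193 lower). Higher calls made up 48.1% in the reported fit, 25.9% without the filter and 58.3% under the stricter filter. Leaving out 1 pair or the pairs of 1 age gave 7763 to 10253, and the wild-type count ran from 8265 to 12313. The genotype difference gave 0 genes with 4 times the pseudocount, without the filter, with quantile scaling, with 1 coefficient per genotype and age and with the mitochondrial share as covariate, 741 by DESeq2, and 0 to 433 when 1 pair was left out. Late against early ages gave 17 genes by DESeq2 and 0 to 1 when 1 pair was left out. Leaving out 1 pair moved the counts at single ages to 356 to 2035 at 30 days, 2847 to 5806 at 60 days, 2223 to 3770 at 90 days and 1053 to 3575 at 105 days, and the 30-day pairs fitted alone gave 3308. Among list medians in Sod1G86R, those of 4 lists low in CSN moved between 4 times the pseudocount and the count tests, from -0.83 to -3.92 for GABAergic markers, -0.79 to -2.85 for antigen presentation genes, -1.71 to -3.76 for precursor markers and -2.07 to -4.24 for endothelial markers. Without the replicate block, which uses the pairing by title number, 10503 genes passed in Sod1G86R, 11647 in wild type and 2 for the genotype difference. The sign reversed for Sod1 with quantile scaling (-0.034 in Sod1G86R, -0.37 for the genotype difference) and, for the genotype difference, when 1 pair was left out (-0.035 to 0.15). For the genotype difference of Crym it reversed with the mitochondrial covariate (-0.037) and when 1 pair was left out (-0.086 to 0.61). None of these 5 values had passed. The cause was not tested, except that fitting without a filter tests more genes. With 2 to 4 pairs an age, the number of pairs limits what single ages can show.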
